A study of Mus musculus with 6 samples.

Results

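The Kupffer cell and macrophage markers described here were 10 genes (Emr1, Clec4f, Timd4, Vsig4, Cd5l, Marco, Cd163, Csf1r, Cd68 and Lyz2) chosen by name from what is known of these cells, with earlier results of these data at hand. They were 10 of the 24063 genes in the count table, and all 10 were among the 13572 genes that passed a filter on low counts and were tested. The tumors came from livers of male mice, 3 WT and 3 Nr2e3-/-, with 1 RNA library each, and the strain is C57BL/6 in the labels and C57BL/6J for WT in the methods, which describe the Nr2e3-/- animals as knockout mice and name no tissue-specific driver. Every mouse, in both genotypes, had been given the liver carcinogen diethylnitrosamine (DEN) at 25 mg per kg by intraperitoneal injection at 15 days of age, and the tumors belonged to the 24-week time point. Nr2e3 encodes an orphan nuclear receptor, and the comparison of the 2 groups asks how tumor RNA differs when it is deleted.

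Kupffer cells are the resident macrophages of the liver. They line the sinusoids, the blood channels between hepatocyte plates, where they take up bacteria, aged red cells and debris from portal blood. Their survival depends on the receptor Csf1r, their identity on signals from neighbouring stellate, endothelial and hepatocyte cells, and when they are lost, monocytes from the blood can enter the liver and take on much of the same gene program. Clec4f, Timd4, Vsig4, Cd5l and Marco mark resident Kupffer cells in mouse liver, whereas Emr1, Csf1r, Cd68 and Lyz2 are shared by macrophages of most tissues, and Lyz2 also by monocytes and neutrophils.

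Total counts were between 15376261 and 28690279 per library. Nr2e3 itself had 0 counts in all 6 libraries, which allows up to 3 counts in each, so the genotype in the labels could not be checked from its RNA. Of the 13572 genes tested, edgeR's quasi-likelihood test called 13 at a Benjamini-Hochberg adjusted p under 0.05 (0.0958%), and the median log2 fold change of all genes was 0.01. The labels name no batch. P-values measure the spread between these 3 libraries per genotype.

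None of the 10 markers differed between Nr2e3-/- and WT tumors beyond the spread between libraries. EdgeR called 0 of 10 at an adjusted p under 0.05, beside 0.0958% of all genes, and 0 of 10 at an unadjusted p under 0.05, beside 21.5% of all genes. DESeq2, which called 8% of all genes at an adjusted p under 0.05, and limma-voom, which called 17.4%, also called 0 of the 10. The groups overlapped for all 10, whereas 26.8% of all genes had groups that did not overlap. The 10 log2 fold changes were all above 0, with a median of 0.32, but this direction rested on 1 tumor. Nr2e3-/- replicate 2 had the highest level of every marker, and without it 9 of 10 fold changes were below 0. In bulk tumor RNA, fewer cells of a type and less RNA per cell cannot be told apart.

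**Figure D1:**
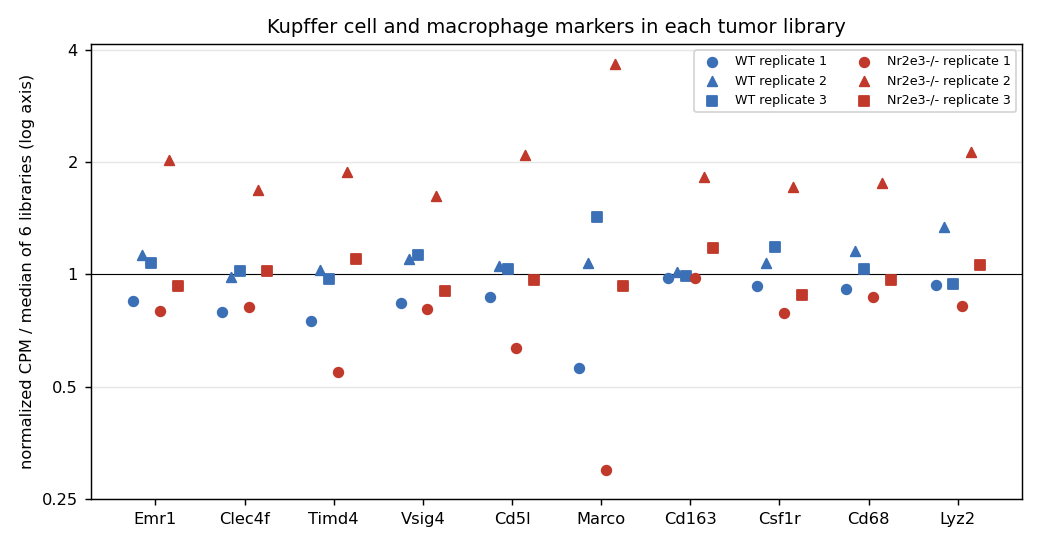
Normalized CPM (counts scaled to the library total) of each marker divided by its median over the 6 libraries, on a log axis; blue points are WT tumors, red points Nr2e3-/- tumors, and the shape gives the replicate. Nr2e3-/- replicate 2 (red triangles) lies at 1.62 to 3.65 times the median for every marker, and Nr2e3-/- replicate 1 (red circles) has the lowest level of 8 of the 10.

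The promoters of 4 markers are shown, because the genes varied together between tumors and the stretch holds the start of each gene. RefSeq (GRCm38.p6) gave 300 bases, from 250 before the transcription start to 50 after it, for 8 of the 10 markers, all but Emr1 and Csf1r. Capitals mark the letters GAGGAA, or TTCCTC where they lie on the other strand, the purine-rich core bound by Ets factors such as PU.1, the factor that macrophages need to form. Marco is shown as the most variable marker, Cd5l as the most abundant per length, Vsig4 for its pair of matches and Clec4f, the marker closest to Kupffer cells alone, as a promoter without a match. Each is written 5′ to 3′ on the strand of its gene.
Marco (chr1:120504975-120505274, minus strand): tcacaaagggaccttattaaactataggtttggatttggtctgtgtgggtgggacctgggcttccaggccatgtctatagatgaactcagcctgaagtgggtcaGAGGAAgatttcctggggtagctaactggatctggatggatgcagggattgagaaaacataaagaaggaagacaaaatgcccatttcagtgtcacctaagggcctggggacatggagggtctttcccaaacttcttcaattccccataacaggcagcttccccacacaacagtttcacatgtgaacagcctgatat
Cd5l (chr3:87357631-87357930, plus strand): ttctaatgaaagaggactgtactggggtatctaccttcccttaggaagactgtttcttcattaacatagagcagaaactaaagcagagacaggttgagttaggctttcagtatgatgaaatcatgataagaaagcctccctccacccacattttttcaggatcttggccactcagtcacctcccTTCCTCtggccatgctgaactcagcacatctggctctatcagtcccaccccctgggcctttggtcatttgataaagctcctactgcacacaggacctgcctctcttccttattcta
Vsig4 (chrX:96293389-96293688, minus strand): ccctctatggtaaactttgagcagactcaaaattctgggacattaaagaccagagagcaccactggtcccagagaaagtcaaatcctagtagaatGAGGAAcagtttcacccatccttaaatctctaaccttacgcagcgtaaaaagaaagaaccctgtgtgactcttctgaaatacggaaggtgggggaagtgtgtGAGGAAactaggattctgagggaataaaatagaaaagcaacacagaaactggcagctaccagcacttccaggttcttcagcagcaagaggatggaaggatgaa
Clec4f (chr6:83656067-83656366, minus strand): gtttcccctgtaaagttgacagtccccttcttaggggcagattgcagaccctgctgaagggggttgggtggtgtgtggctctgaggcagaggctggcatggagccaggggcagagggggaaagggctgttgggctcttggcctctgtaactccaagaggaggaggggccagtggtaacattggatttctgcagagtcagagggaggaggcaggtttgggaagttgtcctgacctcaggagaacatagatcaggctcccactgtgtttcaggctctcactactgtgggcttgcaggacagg
The match in Marco began at position -146 from the start, that in Cd5l at -66 on the opposite strand, and those in Vsig4 at -155 and -53. With Cd68, 4 of the 8 promoters held the letters GAGGAA on either strand, against 28.3% of 32851 mouse promoters of the same length. The letters TATAAA, the common form of a TATA box, were in 0 of 8, against 13.6% of those promoters. A match is a description of these windows and not a binding site.

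Relative to exon length, the resident Kupffer cell gene Cd5l was the most abundant marker in WT tumors, at 54.5 ± 5.56 CPM per kb of exons (SD, n = 3). Clec4f followed at 41.0 ± 5.30 CPM per kb and Lyz2 at 39.0 ± 8.45, and the WT range of Lyz2 (34.1 to 48.8) overlapped those of both Clec4f and Cd5l (48.1 to 58.2). Vsig4 stood apart at 21.5 ± 3.35 CPM per kb. Csf1r, at 10.4 ± 1.23, and Cd68, at 9.53 ± 1.12, overlapped in range. Emr1 (6.98 ± 1 CPM per kb), Marco (5.75 ± 2.44) and Cd163 (5.25 ± 0.101) formed a chain in which each overlapped its neighbour. Timd4 was the least abundant at 3.32 ± 0.530 CPM per kb, below the WT range of Cd163, while its own WT range (2.72 to 3.72) overlapped that of Marco (3.17 to 8.03). All 10 markers were detected in every library, with counts of a single marker between 49 (Marco, Nr2e3-/- replicate 1) and 6323 (Cd5l, Nr2e3-/- replicate 2).

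**Figure D2:**
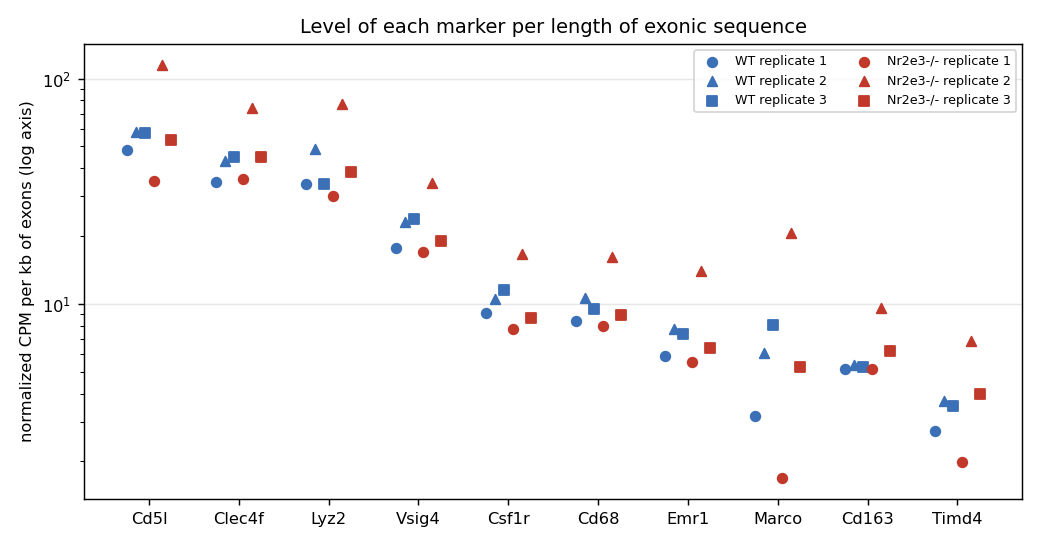
Normalized CPM per kilobase of exons for each marker in each library, on a log axis, ordered by the WT mean; blue points are WT tumors, red points Nr2e3-/- tumors, and the shape gives the replicate. Cd5l, at 54.5 in WT, leads and Timd4, at 3.32, is last, and the points of Marco are the most spread.

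Clec4f encodes a C-type lectin receptor found on Kupffer cells in mouse, and lies at chr6:83644542-83656187 on the minus strand (GRCm38). Its level was 86.3, 107 and 111 CPM in WT tumors 1 to 3, and 88.6, 183 and 111 CPM in Nr2e3-/- tumors 1 to 3. WT replicate 1 was the lowest and Nr2e3-/- replicate 2 the highest, and the other Nr2e3-/- tumors lay within or at the edge of the WT range. Clec4f had a log2 fold change of 0.33 (SE 0.26, adjusted p = 0.479 in edgeR), with a 95% interval from 0.82-fold to 1.94-fold.

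Timd4 encodes a receptor for phosphatidylserine, the lipid by which dying cells are recognised, and marks long-lived resident Kupffer cells. It lies at chr11:46810800-46844332 on the plus strand. Levels were 5.91, 8.09 and 7.66 CPM in WT tumors and 4.30, 14.8 and 8.65 CPM in Nr2e3-/- tumors. The Nr2e3-/- tumors held both the lowest and the highest value, so the WT values lay inside their range. For Timd4 the log2 fold change was 0.37 (SE 0.40, adjusted p = 0.606), and the 95% interval ran from 0.673-fold to 2.49-fold.

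Vsig4, at chrX:96247203-96293438 on the minus strand, encodes a complement receptor that captures opsonised bacteria from the blood. It had 26.2, 34.4 and 35.2 CPM in WT tumors and 25.3, 50.8 and 28.2 CPM in Nr2e3-/- tumors. Nr2e3-/- replicates 1 and 3 were below WT replicates 2 and 3, and replicate 2 was above all WT tumors. The log2 fold change of 0.13 (SE 0.27, adjusted p = 0.806) had an interval from 0.699-fold to 1.70-fold.

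Cd5l, at chr3:87357881-87371073 on the plus strand, encodes a protein that macrophages secrete and that circulates bound to IgM. WT tumors had 98.0, 118 and 117 CPM, and Nr2e3-/- tumors had 71.6, 235 and 109 CPM. The 3 WT tumors were close to each other, while the Nr2e3-/- tumors spanned a 3.28-fold range that enclosed them. This was a log2 fold change of 0.32 (SE 0.39, adjusted p = 0.656), with an interval from 0.657-fold to 2.37-fold.

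Marco and Cd163 encode scavenger receptors, Marco for bacteria and particles and Cd163 for haemoglobin bound to haptoglobin. Marco (chr1:120474538-120505024, minus strand) was the most variable marker, with 6.11, 11.6 and 15.5 CPM in WT tumors and 3.24, 39.7 and 10.1 CPM in Nr2e3-/- tumors. Its highest library was 12.2 times its lowest, and both were Nr2e3-/- tumors. The log2 fold change of Marco was 0.69 with an SE of 0.79 (adjusted p = 0.627), and the interval, from 0.447-fold to 5.85-fold, excluded neither a large fall nor a large rise.
Cd163 (chr6:124304656-124330527, plus strand) was the most even marker in WT tumors, at 28.2, 29.3 and 28.5 CPM. In Nr2e3-/- tumors it had 28.2, 52.6 and 33.9 CPM, so that replicates 2 and 3 were above every WT tumor and replicate 1 was level with the lowest of them. Its log2 fold change of 0.42 (SE 0.22) had the lowest p of the 10 markers, at an unadjusted 0.0983 and an adjusted p of 0.307. The interval ran from 0.933-fold to 1.92-fold.

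Among the markers shared by macrophages of many tissues, Csf1r encodes the receptor for the growth factors Csf1 and Il34. It had 52.6, 60.6 and 66.8 CPM in WT tumors and 44.5, 96.6 and 49.9 CPM in Nr2e3-/- tumors. Nr2e3-/- replicates 1 and 3 were below all WT tumors and replicate 2 was above all of them. The log2 fold change was 0.09 (SE 0.29, adjusted p = 0.874), with an interval from 0.663-fold to 1.71-fold, and its sign turned with limma-voom (-0.0716) and with upper quartile normalization. Csf1r (chr18:61100598-61132149, plus strand) was the one marker whose gene overlaps others, the microRNA gene Mir6983 and Hmgxb3 on the opposite strand. Whether the counting used strand was not given in the sources used here. Hmgxb3 had 20.5 to 26.2 CPM and a log2 fold change of 0.11.

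Emr1 (Adgre1 in the annotation, chr17:57358691-57483527, plus strand) encodes F4/80, the adhesion receptor by which mouse macrophages are stained. WT tumors had 18.9, 25 and 23.9 CPM and Nr2e3-/- tumors 17.8, 45.2 and 20.7 CPM, so the Nr2e3-/- values again enclosed the WT values. The log2 fold change was 0.31 (SE 0.34, adjusted p = 0.619), with an interval from 0.706-fold to 2.17-fold. Cd68 (chr11:69664213-69666153, minus strand), a glycoprotein of endosomes and lysosomes, had 10.6, 13.4 and 12 CPM in WT tumors and 10.1, 20.4 and 11.2 CPM in Nr2e3-/- tumors. This gave a log2 fold change of 0.22 (SE 0.27, adjusted p = 0.658), with an interval from 0.746-fold to 1.82-fold. For Cd68, too, the Nr2e3-/- tumors held both the lowest and the highest value.

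Lyz2 (chr10:117277331-117282321, minus strand) encodes the lysozyme of macrophages, monocytes and neutrophils. It had 44.9, 64.2 and 45.0 CPM in WT tumors and 39.5, 102 and 50.8 CPM in Nr2e3-/- tumors. Nr2e3-/- replicate 2 was the highest and replicate 1 the lowest, and replicate 3 lay inside the WT range. Lyz2 had a log2 fold change of 0.32 (SE 0.35, adjusted p = 0.609), with an interval from 0.708-fold to 2.20-fold. Lyz2 shares sequence with its neighbour Lyz1, in that 15.4% of the 50-base windows of Lyz2 exons also occur in Lyz1, but Lyz1 had only 2 to 7 counts per library.

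The spread of the markers between tumors of 1 genotype was above the median of all genes in both groups. The median SD of log2 CPM over the 10 markers was 0.20 in WT and 0.65 in Nr2e3-/- tumors, against 0.14 and 0.26 over all genes tested. All 10 were highest in Nr2e3-/- replicate 2, where 24% of all genes tested were highest. Nr2e3-/- replicate 1 had the lowest level of 8 markers, all but Clec4f and Cd163, which were lowest in WT replicate 1, and 17.2% of all genes tested were lowest there. The summed level of the 10 markers was 378, 472 and 462 CPM in WT tumors and 333, 840 and 433 CPM in Nr2e3-/- tumors.

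The markers varied together between tumors. Over the 6 libraries the 45 pairs of markers had a median Pearson correlation of log2 CPM of 0.94, with a range from 0.789 to 0.996, and a median Spearman correlation of 0.89. Without Nr2e3-/- replicate 2 the median Pearson correlation over 5 libraries was 0.78, with a range from -0.18 to 0.98. The points of each pair are the same libraries, with the same depth and scaling.

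Outside the lists, the genes whose pattern was most like that of Clec4f were Fam49b, P2ry13, Slc13a5, Csnk1g1 and Eea1, with Pearson correlations of 0.99 each over 6 libraries. P2ry13 encodes a receptor for ADP, Slc13a5 a citrate transporter and Eea1 a tether of early endosomes. All of them were highest in Nr2e3-/- replicate 2, from 7.43 CPM (P2ry13) to 77.4 CPM (Eea1). When the 2 libraries farthest from the median of Clec4f, Nr2e3-/- replicate 2 and WT replicate 1, were left out, the correlations over the remaining 4 were 0.91 to 0.97. The genes had been picked by their correlation over all 6 libraries, these 4 included, so these values are no separate check. In all, 257 of 13427 genes had a correlation above 0.9 with Clec4f.

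The direction of the difference between genotypes turned when Nr2e3-/- replicate 2 was left out, and its size was larger when replicate 1 was. Without Nr2e3-/- replicate 2, Cd163 kept a log2 fold change above 0, at 0.12, and the other 9 were between -0.71 (Marco) and -0.02 (Clec4f), with a median of -0.21. Csf1r was then the 1 marker of 10 with an unadjusted p under 0.05, at -0.34 (adjusted p = 0.254 in edgeR), where 19% of all genes had such a p. Without Nr2e3-/- replicate 1, the fold changes were 0.30 (Csf1r) to 1.19 (Marco). Clec4f (0.55, adjusted p = 0.125), Timd4 (0.72, adjusted p = 0.0913) and Cd163 (0.61, adjusted p = 0.0553) then had an unadjusted p under 0.05, 3 of 10 markers beside 37.7% of all genes. At an adjusted p under 0.05, that comparison called 0 of 10 markers and 21.8% of all genes.

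**Figure D3:**
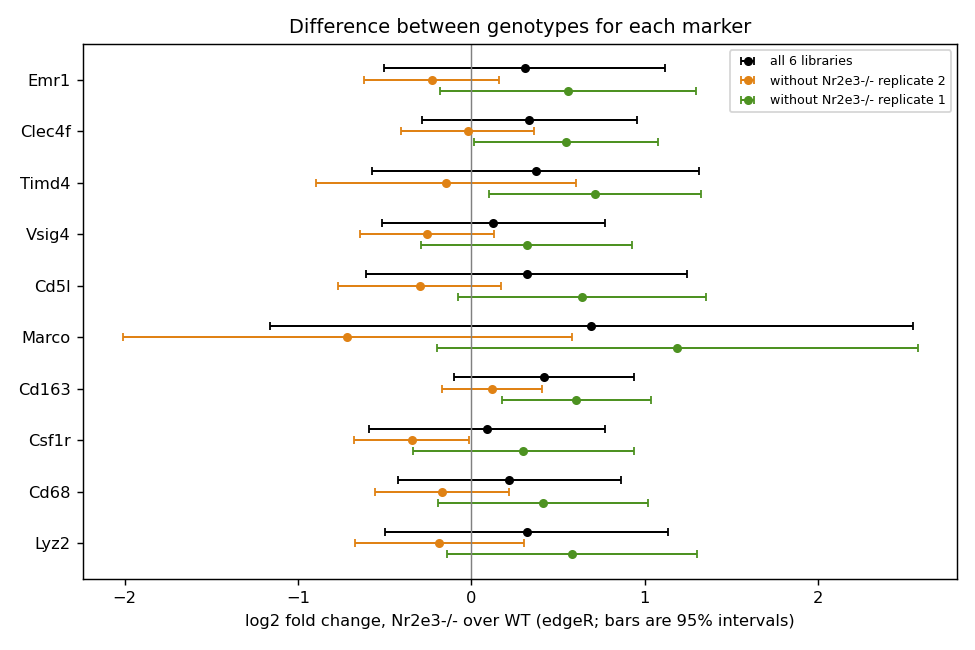
Log2 fold change of Nr2e3-/- over WT for each marker from edgeR, with 95% intervals as bars, for all 6 libraries (black), without Nr2e3-/- replicate 2 (orange) and without Nr2e3-/- replicate 1 (green). All 10 black intervals include 0, and the orange points lie below 0 for every marker but Cd163, at 0.12.

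Because the markers moved together, their balance within a tumor was also examined, as a ratio of counts to Csf1r in the same library, a comparison chosen after the data had been seen. Clec4f had 1.64, 1.76 and 1.66 counts per count of Csf1r in WT tumors and 1.99, 1.90 and 2.22 in Nr2e3-/- tumors. Cd163 had 0.536, 0.483 and 0.427 per count of Csf1r in WT tumors and 0.634, 0.545 and 0.679 in Nr2e3-/- tumors. Both ratios were higher in all 3 Nr2e3-/- tumors than in any WT tumor, as was that of 3.72% of all genes. The exact permutation p was 0.1 for each, the smallest that 3 against 3 allows, and 0.45 after Benjamini-Hochberg adjustment over the 9 ratios. The other 7 ratios overlapped between groups, among them Vsig4 at 0.499 to 0.568 in WT and 0.526 to 0.568 in Nr2e3-/- tumors. With Emr1 or with Cd68 in the place of Csf1r, 0 of 9 ratios were without overlap.

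**Figure D4:**
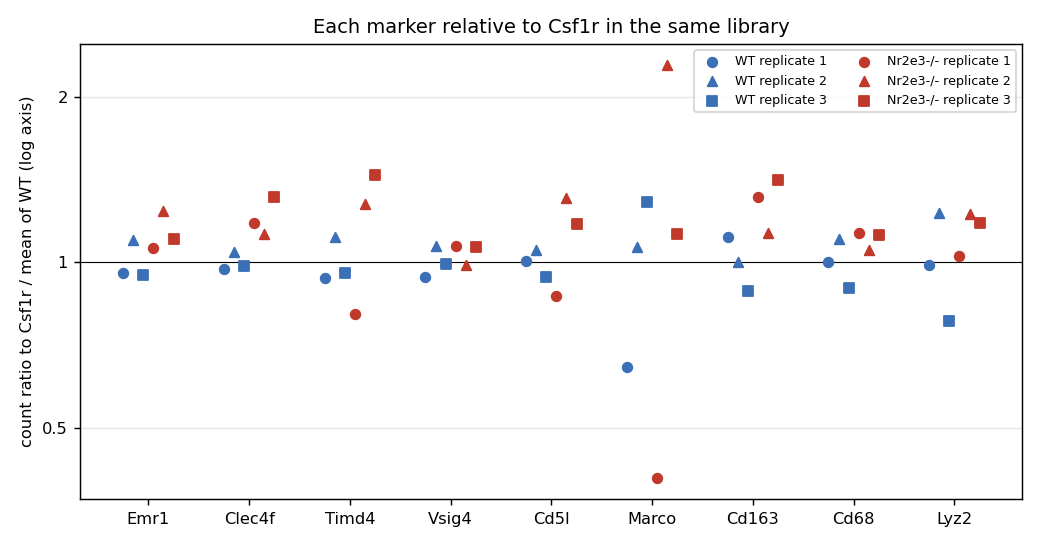
Counts of each marker per count of Csf1r in the same library, divided by the WT mean of that ratio, on a log axis; blue points are WT tumors, red points Nr2e3-/- tumors, and the shape gives the replicate. The red points of Clec4f and Cd163 lie above all of their blue points, and the groups overlap for the other 7 markers.

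Other genes of Kupffer cells were less uniform than the 10 markers. Of 13 such genes tested, 0 were called by edgeR at an adjusted p under 0.05. At an unadjusted p under 0.05, 2 were higher and 1 lower, beside 21.5% of all genes. Of the 13, 10 were highest in Nr2e3-/- replicate 2, beside 24% of all genes. The median log2 fold change of the 13 was 0.27, and -0.06 without that tumor. The iron exporter ferroportin, Slc40a1, had 185, 199 and 271 CPM in WT tumors and 111, 150 and 124 CPM in Nr2e3-/- tumors. All Nr2e3-/- tumors were below all WT tumors, with a log2 fold change of -0.77 (SE 0.18, adjusted p = 0.111). Complement component C6 had 263, 189 and 300 CPM in WT and 396, 408 and 490 CPM in Nr2e3-/- tumors (log2 fold change 0.78, SE 0.19, adjusted p = 0.112). Its groups did not overlap either, which held for 26.8% of all genes. DESeq2 and limma-voom called both Slc40a1 and C6, and no other gene of the list. Cd38, an enzyme that consumes NAD, was the other gene on the higher side (0.60, SE 0.22, adjusted p = 0.194), and its groups overlapped. The ficolin Fcna, a pattern recognition lectin, had 35.0 to 49.5 CPM in WT and 37.2 to 65.5 CPM in Nr2e3-/- tumors, and C1qb, a chain of complement C1q, 42.0 to 50.7 and 34.0 to 77.9 CPM.

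Among transcription factors of Kupffer cells, fewer were highest in the tumor where the markers were. Of 8 tested, 3 were highest in Nr2e3-/- replicate 2, beside 24% of all genes. An unadjusted p under 0.05 was found for 0 of 8, beside 21.5% of all genes. Of the 8, 0 were called by edgeR, DESeq2 or limma-voom, and the median log2 fold change was 0.03. Nr1h3, the oxysterol receptor LXRα, had 75.4 to 88.2 CPM in WT and 79.3 to 93.3 CPM in Nr2e3-/- tumors. Maf had 33.7 to 40.6 CPM over the 6 libraries and Id3, an inhibitor of helix-loop-helix factors, 30.2 to 68.3 CPM. Hepatocytes also express Nr1h3, and endothelial cells Maf and Id3.

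Growth factors, their receptors and niche ligands numbered 10, of which 9 were tested and 1, Csf2, had 0 counts in all libraries, which allows up to 3 counts in each. EdgeR and DESeq2 called none, limma-voom called 1, Gdf2, and the median log2 fold change was -0.13. At an unadjusted p under 0.05, 0 were higher and 2 lower, beside 21.5% of all genes. The Notch ligand Dll1 had 4.61, 6.26 and 4.65 CPM in WT tumors and 3.97, 2.49 and 3.41 CPM in Nr2e3-/- tumors (log2 fold change -0.66, SE 0.24, adjusted p = 0.182). Bmp10 was at 1.05 to 1.77 CPM in WT and 0.595 to 0.928 CPM in Nr2e3-/- tumors (-0.80, SE 0.32, adjusted p = 0.211). Both had groups that did not overlap, as had 26.8% of all genes. Csf1, the ligand of Csf1r, was at 11.4 to 12.6 CPM in WT and 9.60 to 14.7 CPM in Nr2e3-/- tumors. Gdf2, which encodes BMP9, had 14.9 to 16.1 and 5.53 to 15.8 CPM, Tgfb1 10.2 to 12.3 and 9 to 16.9 CPM, and Csf2rb 6.59 to 26.8 and 5.63 to 25.7 CPM.

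Most general macrophage and phagocyte genes were highest in the same tumor as the markers. Of 14 tested, 13 were highest in Nr2e3-/- replicate 2, beside 24% of all genes. The median log2 fold change was 0.21 with all libraries and -0.14 without that tumor. None of the 14 was called by edgeR, DESeq2 or limma-voom. Their summed level was 324 to 416 CPM in WT tumors and 320, 643 and 357 CPM in Nr2e3-/- tumors 1 to 3. Ctss, a lysosomal protease of antigen presentation, had 33.9 to 48.0 CPM in WT and 33.4 to 75.9 CPM in Nr2e3-/- tumors. Tlr2, a receptor for bacterial lipoproteins, was the 1 gene of the 14 with an unadjusted p under 0.05, beside 21.5% of all genes. It had 4.11, 6.80 and 3.64 CPM in WT and 2.45, 29.1 and 24.6 CPM in Nr2e3-/- tumors, so that replicates 2 and 3 were high and replicate 1 was below WT (log2 fold change 1.96, SE 0.75, adjusted p = 0.2). Mpeg1, a pore-forming protein of phagocytes, had 142 to 253 and 142 to 280 CPM, Axl, a receptor for dying cells, 25 to 32.6 and 23.6 to 43.0 CPM, and Cybb, a subunit of the NADPH oxidase, 23.1 to 32.9 and 16.4 to 40.0 CPM.

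Among 8 other scavenger receptors, 2 were highest in Nr2e3-/- replicate 2, beside 24% of all genes. Of the 8, 1 was higher and 1 lower at an unadjusted p under 0.05, beside 21.5% of all genes. EdgeR called none, DESeq2 called Cd36 and Olr1 and limma-voom Cd36, and the median log2 fold change was -0.10. Cd36, which takes up fatty acids and oxidised lipoproteins, had 146, 162 and 123 CPM in WT and 96.9, 80.9 and 67.6 CPM in Nr2e3-/- tumors. Cd36 had a log2 fold change of -0.81 (SE 0.17, adjusted p = 0.0963). Its groups did not overlap, which held for 26.8% of all genes. Olr1, a receptor for oxidised LDL, had 0.0694 to 0.372 CPM in WT tumors and 0.265, 4.34 and 0.595 CPM in Nr2e3-/- tumors (log2 fold change 3.24, SE 1.11, adjusted p = 0.171). Its counts were 3, 11 and 2 in WT and 4, 117 and 11 in Nr2e3-/- tumors. Mrc1, the mannose receptor of Kupffer and endothelial cells, had 73.5 to 95.2 CPM in WT and 68.0 to 91.3 CPM in Nr2e3-/- tumors. The lipoprotein receptors Scarb1 and Lrp1, which hepatocytes also make, had 148 to 171 and 706 to 812 CPM in WT and 154 to 210 and 645 to 720 CPM in Nr2e3-/- tumors.

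Genes of monocytes that have newly entered from the blood also peaked in the tumor with the highest marker levels. Of 11 tested, 9 were highest in Nr2e3-/- replicate 2, beside 24% of all genes. At an unadjusted p under 0.05, 5 were higher and 0 lower, beside 21.5% of all genes. EdgeR called none of the 11, DESeq2 called Chil3 and Vcan, and limma-voom called Chil3. Their summed level was 18.7, 21.8 and 15.3 CPM in WT tumors and 14.7, 65.4 and 27.0 CPM in Nr2e3-/- tumors. The median log2 fold change was 0.85, and 0.04 over the 10 genes tested without replicate 2. The 5 genes were Chil3 (log2 fold change 2.75, adjusted p = 0.125), Vcan (2.65, adjusted p = 0.163), Ccr1 (2.05, adjusted p = 0.233), F13a1 (1.98, adjusted p = 0.21) and Itgam (1.21, adjusted p = 0.209). Chil3 was at 0.208 to 0.338 CPM in WT and 0.397, 3.53 and 1.73 CPM in Nr2e3-/- tumors. It was the 1 gene of the list without overlap, beside 26.8% of all genes. Chil3 passed the filter on low counts only through Nr2e3-/- tumors, where it was higher, so its p in edgeR lends no separate support. Its counts were low, at 8, 10 and 6 in WT and 6, 95 and 32 in Nr2e3-/- tumors. The raw counts of Nr2e3-/- replicate 1 were thus not above those of WT tumors. The chemokine receptor Ccr2, which monocytes use to leave the bone marrow, had 2.60 to 2.94 CPM in WT and 1.66, 9.99 and 3.03 CPM in Nr2e3-/- tumors. Plac8 had 5.65 to 7.61 CPM in WT and 6.36 to 14.9 CPM in Nr2e3-/- tumors.

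Neutrophil markers were at low levels, and part of them were above the WT range in both Nr2e3-/- replicates 2 and 3. Of 10 in the table, 5 were tested, and all 5 were highest in replicate 2, beside 24% of all genes. Of the 5, 3 were higher and 0 lower at an unadjusted p under 0.05, beside 21.5% of all genes. EdgeR called none of the 5, and DESeq2 and limma-voom both called S100a8 and S100a9. The summed level was 5.11, 7.54 and 4.40 CPM in WT tumors and 3.84, 33.1 and 20.7 CPM in Nr2e3-/- tumors, and none of the 10 was at 0 in all libraries. Ly6g was not analysed here. S100a8 and S100a9, the subunits of calprotectin, had log2 fold changes of 2.65 (SE 0.76, adjusted p = 0.134) and 2.30 (SE 0.68, adjusted p = 0.14), and the chemokine receptor Cxcr2 had 2.04 (SE 0.74, adjusted p = 0.183). Csf3r, the receptor for G-CSF, had 1.57 to 2.74 CPM in WT and 0.794, 3.49 and 2.05 CPM in Nr2e3-/- tumors, so that replicate 3 lay inside the WT range, and the protease Mmp9 had 0.694 to 1.08 CPM in WT and 0.265, 2.23 and 1.57 CPM in Nr2e3-/- tumors. In replicate 3, where S100a8, S100a9 and Cxcr2 were above the WT range, the 10 Kupffer cell and macrophage markers were at 0.882 to 1.17 times their median. The part of monocytes or neutrophils in the levels of Lyz2, Cd68 and the other shared markers was not tested.

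Genes of lipid-associated and tumor macrophages included 10 tested, of which 4 were highest in Nr2e3-/- replicate 2, beside 24% of all genes. With an unadjusted p under 0.05, 1 was higher, beside 21.5% of all genes. None was called by edgeR, DESeq2 or limma-voom, and the median log2 fold change was -0.05. The 1 higher gene was Spp1, osteopontin, at 107, 46.0 and 47.1 CPM in WT and 56.3, 410 and 171 CPM in Nr2e3-/- tumors (1.68, SE 0.68, adjusted p = 0.219). Bile duct cells and tumor cells also make Spp1. The tetraspanins Cd9 and Cd63 had 25.1 to 41.9 and 17.8 to 31.6 CPM in WT and 26.3 to 35.5 and 15.2 to 48.1 CPM in Nr2e3-/- tumors, and the lipase Lpl had 55.0 to 79.6 and 38.3 to 76.7 CPM. Of 14 macrophage chemokines and cytokines, 8 were tested and edgeR called none, with a median of 0.20. Highest in replicate 2 were 4, beside 24% of all genes, and 1 was higher at an unadjusted p under 0.05, beside 21.5%. That gene was Ccl6, called by DESeq2 and limma-voom, at 7.64, 12.3 and 11.4 CPM in WT and 10.7, 41.3 and 24.8 CPM in Nr2e3-/- tumors (1.30, SE 0.45, adjusted p = 0.173). Ccl9 had 46.8 to 69.3 CPM in WT and 50.7 to 83.2 CPM in Nr2e3-/- tumors, Cxcl16 9.54 to 14.2 and 9.60 to 13.6 CPM, and Il18 8.03 to 9.20 and 7.73 to 9.86 CPM.

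**Figure D5:**
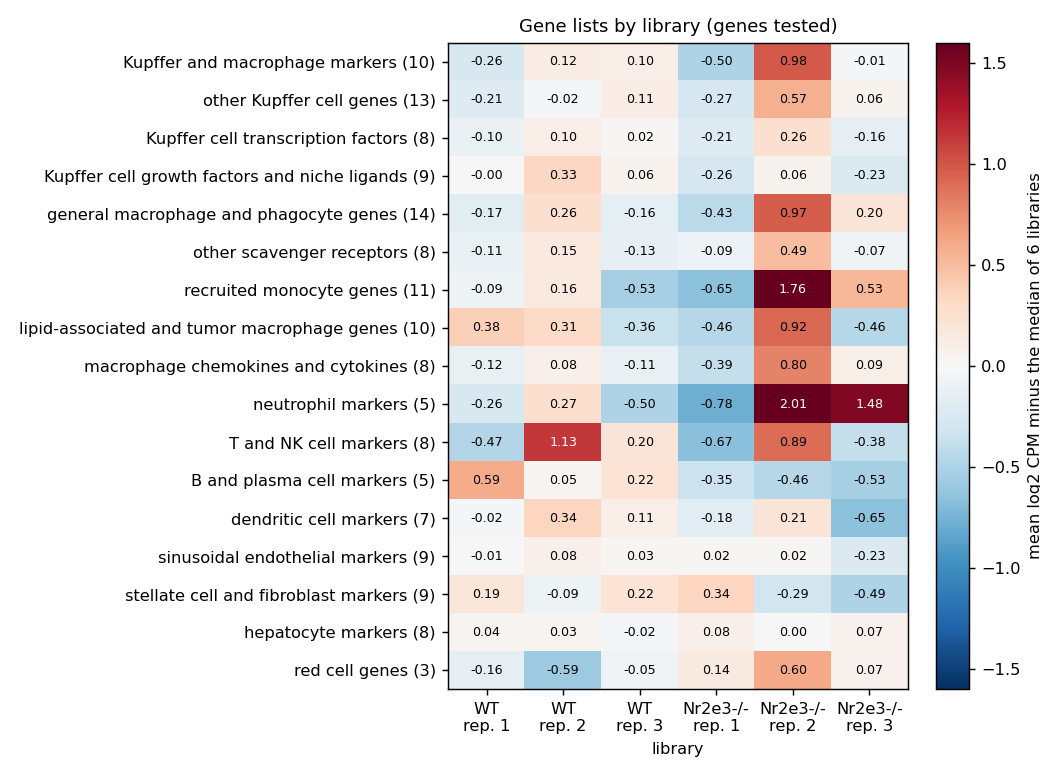
Mean over each gene list of log2 CPM minus the median of the 6 libraries, for the genes tested (their number in parentheses), with 1 column per library. Nr2e3-/- replicate 2 is at 0.98 for the Kupffer cell and macrophage markers, 0.97 for general macrophage genes and 1.76 for monocyte genes, and at 0.26 for Kupffer cell transcription factors and 0.02 for sinusoidal endothelial markers.

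The markers of sinusoidal endothelial cells and hepatocytes, the neighbours of Kupffer cells, did not share this order of tumors. The summed level of 9 sinusoidal endothelial markers was 444 to 491 CPM in WT tumors and 442, 445 and 368 CPM in Nr2e3-/- tumors 1 to 3, where the Kupffer cell and macrophage markers were at 333, 840 and 433 CPM. The 8 hepatocyte markers, among them albumin, were between -0.02 and 0.08 from their median in mean log2 CPM in every library. This mean does not show single genes, whose log2 fold changes ran from -0.37 to 0.50, with 3 of the 8 above 0. Of these lists, 3 of 9 endothelial and 1 of 8 hepatocyte genes were highest in Nr2e3-/- replicate 2, beside 24% of all genes. Other lists were high there too. The 8 T and NK cell markers were at 0.89 in mean log2 CPM from the median in that tumor and at 1.13 in WT replicate 2, and the 3 red cell genes were at 0.60, with Hbb-b1 at 131 CPM there and 41.2 to 64.7 CPM in the other libraries. The part of blood or lymphocytes in the marker levels of that tumor was not tested.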

How the data were processed

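RNA from liver tumors of 3 WT and 3 Nr2e3-/- mice was measured by RNA-seq, and the labels gave each sample's genotype, while the paper gave dose, age and time point. The authors prepared TruSeq libraries, aligned single-end reads to mm10 (GRCm38) with TopHat and counted them per gene with featureCounts, so the deposited values are whole-number counts. A normalized table and a comparison table of fold changes and p-values, both made by the authors, were not used. The other data of the paper were not analysed here.

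Genes were kept by filterByExpr (count of 10, total of 15). TMM scaling was followed by the two-sided quasi-likelihood F test of edgeR 4.0.16 in R 4.3.3, with Benjamini-Hochberg adjustment over all genes tested. Log2 CPM used a prior count of 2. Intervals of fold changes are at 95%. The script was tested on simulated data. Alternatives were RLE and upper quartile normalization, DESeq2 1.42.0, limma-voom (limma 3.58.1) with quality weights, filters of 1 count in total or of 10 in each library, a replicate block, and omission of each library. Deviations of same-numbered libraries had r of -0.08, 0.22 and 0.02, within the range of differently numbered ones (-0.26 to 0.22), so the main comparison has no block. These few values cannot show whether the libraries were paired. Exon lengths and positions came from GENCODE M21, and figures from matplotlib 3.10.9 in Python 3.11.15.

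The rule for named genes took the 10 markers, the 4 most abundant tested genes of each of 16 lists, any list gene with an adjusted p under 0.05 and the 5 genes most like Clec4f. Not all of the 4 were named for the T and NK cell, dendritic cell, endothelial, stellate cell, hepatocyte and red cell lists. List genes named for an unadjusted p under 0.05, as highest in Nr2e3-/- replicate 2 or as at 0 were chosen after their values were seen. The markers and lists, written from memory, were chosen with earlier results of these data known. Of the list genes, 153 were in the table and 135 were tested. The values of 2 list genes, which entered the counts, medians and sums of their lists, are not reported here.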

Additional observations from a re-analysis of the deposited data

How the results depend on the processing

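No marker was called at an adjusted p under 0.05 under any alternative run. Of 70 marker fold changes under alternatives that kept all libraries, 68 kept their direction and side of the threshold, and Csf1r turned to -0.0716 with limma-voom and to -0.0024 with upper quartile normalization. Of 60 that left out 1 library, 51 did so, and the 9 that reversed were all without Nr2e3-/- replicate 2, at -0.23 (Emr1), -0.0198 (Clec4f), -0.15 (Timd4), -0.25 (Vsig4), -0.30 (Cd5l), -0.71 (Marco), -0.34 (Csf1r), -0.17 (Cd68) and -0.18 (Lyz2). The highest values in such fits were those without Nr2e3-/- replicate 1, at 0.56 (Emr1), 0.55 (Clec4f), 0.72 (Timd4), 0.32 (Vsig4), 0.64 (Cd5l), 1.19 (Marco), 0.61 (Cd163), 0.30 (Csf1r), 0.42 (Cd68) and 0.58 (Lyz2). Markers with an unadjusted p under 0.05 numbered 0 to 3 when 1 library was left out, 3 without Nr2e3-/- replicate 1 and 1 without replicate 2. Ratios without overlap between groups, 2 with Csf1r as the reference, were 0 with Emr1 and 0 with Cd68, both added after seeing the data. Among all genes the 13 calls became 1096 with DESeq2, 2360 with limma-voom, 70 with at least 1 count, 7 with at least 10 counts in every library, 8 with upper quartile normalization, and 0 to 3022 when 1 library was left out (3022 without Nr2e3-/- replicate 1). With the replicate block, 0 genes and 0 of the 10 markers were called. Nothing in the sample titles says whether the same replicate numbers pair the mice. The cause of these changes was not tested.

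With 3 libraries per genotype, the 95% intervals of all 10 markers include no change, and the widest, that of Marco, runs from 0.447-fold to 5.85-fold. The fewest counts behind a marker were 49.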

Other observations

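Of 5 B and plasma cell markers tested, 4 were lower in Nr2e3-/- tumors at an unadjusted p under 0.05 and without overlap between groups, beside 21.5% and 26.8% of all genes, with 0 called by edgeR at an adjusted p under 0.05, 1 by DESeq2 (Cd79b) and 2 by limma-voom (Cd79b and Ms4a1). Cd79b, a chain of the B cell receptor complex, had 1.23, 1.18 and 1.39 CPM in WT and 0.662, 0.334 and 0.324 CPM in Nr2e3-/- tumors (log2 fold change -1.56, SE 0.35, adjusted p = 0.102). Ms4a1, which encodes CD20, had a log2 fold change of -1.49 (adjusted p = 0.141) and Cd79a -1.36 (adjusted p = 0.134). Counts of Cd79a were 15, 14 and 11 in WT and 3, 5 and 3 in Nr2e3-/- tumors. Cd79a passed the filter on low counts only through WT tumors, where it was higher, so its p in edgeR lends no separate support. The 4 lower genes reached at most 1.39 CPM. Igj, the joining chain of secreted IgA and IgM, ranged from 1.83 to 20.9 CPM in WT and from 7.28 to 16.7 CPM in Nr2e3-/- tumors.

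Of 9 sinusoidal endothelial genes, 1 was higher and 2 were lower at an unadjusted p under 0.05, where 21.5% of all genes had such a p, and 5 had groups without overlap, as had 26.8% of all genes. EdgeR called none, DESeq2 called Lyve1 and Kdr, and limma-voom called these and Fcgr2b. Lyve1, a hyaluronan receptor, had 25.6, 16.9 and 28 CPM in WT and 45.0, 43.1 and 36.9 CPM in Nr2e3-/- tumors (log2 fold change 0.82, SE 0.20, adjusted p = 0.111). Kdr, a VEGF receptor, had 73.5, 78.8 and 86.9 CPM in WT and 64.1, 44.7 and 47.6 CPM in Nr2e3-/- tumors (-0.61, SE 0.16, adjusted p = 0.123). Fcgr2b, an inhibitory Fc receptor, had a log2 fold change of -0.45 (adjusted p = 0.176). Of 7 dendritic cell markers, 1 was lower at an unadjusted p under 0.05, Ccr7 (-1.58, adjusted p = 0.176). Counts of Ccr7 were 10, 23 and 17 in WT and 3, 8 and 1 in Nr2e3-/- tumors. Ccr7 passed the filter on low counts only through WT tumors, where it was higher, so its p in edgeR lends no separate support. None of 8 T and NK cell markers or 9 stellate cell and fibroblast markers had an unadjusted p under 0.05. Hnf4a was the 1 of 8 hepatocyte markers with an unadjusted p under 0.05 (0.50, adjusted p = 0.174), and Alas2 the 1 of 3 red cell genes (0.48, adjusted p = 0.155). EdgeR and DESeq2 called none of these 5 lists' genes, while limma-voom called Ccr7, Hnf4a and the stromal genes Dcn, Col3a1 and Reln, all lower in Nr2e3-/- tumors except Hnf4a.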
